A study of Mus musculus with 16 samples.

Results

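A pair of TALE fusions, in which an engineered DNA-binding repeat array was directed to the Ptn promoter, were compared in mouse embryonic stem (ES) cells: Ptn VP64, in which the TALE carried the activator VP64, and Ptn DEL, in which it carried the peptide DEL. The arrays were chosen by their sample titles, 4 for each construct, 8 of the 16 arrays of the series. The other 8 arrays, EGFP alone (4) and Ptn Delta (4), entered the fit only for the estimate of the spread and for reference levels. The labels do not say what Ptn Delta carries. All groups were E14 cells, an established mouse ES line, grown in serum with LIF, transfected with plasmid by lipofection, sorted for eGFP at 24 h, plated again, and harvested for RNA at 48 h. The sort selects cells that took up plasmid; the amount of each fusion protein was not measured here, nor was the openness of chromatin at Ptn. Polyadenylated RNA was labelled with Cy3 and hybridised to single-colour Agilent arrays. The 4 arrays of a group came from 2 biological and 2 technical replicates, and the labels do not say which is which. The p-values below therefore measure the spread between hybridisations, and the largest p of the 3 possible pairings was kept. Only the pairing of replicates 1+3 and 2+4 had a positive block correlation (0.261). The other pairings were fitted like unpaired arrays, so if either is right, technical repeats count as replicates.

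VP64 is a synthetic activation domain built of repeats of a motif from the herpesvirus protein VP16. Domains of this kind bind Mediator and histone acetyltransferases and draw RNA polymerase to a promoter. DEL is a short acidic peptide known for decondensing chromatin where it is tethered. The comparison therefore asks which RNAs differ when the same DNA-binding protein brings an activator or a chromatin-opening peptide. The product of Ptn, pleiotrophin, is a growth factor that cells secrete and that binds heparin. It signals through receptors such as the phosphatase PTPRZ1 and the syndecans, and is known for its role in growing neurons and in the developing brain.

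The 250 bases before the transcription start are printed for the targeted gene and for the genes with the largest named rise and the named fall among the calls below (RefSeq, build GRCm38.p6, read 5′ to 3′ on the transcribed strand). Capitals mark CG dinucleotides and any TATAAA, the letters of a TATA box. Where in the Ptn promoter the TALE binds is not given in the sources used here.
Ptn, chr6:36810180-36810429, minus strand: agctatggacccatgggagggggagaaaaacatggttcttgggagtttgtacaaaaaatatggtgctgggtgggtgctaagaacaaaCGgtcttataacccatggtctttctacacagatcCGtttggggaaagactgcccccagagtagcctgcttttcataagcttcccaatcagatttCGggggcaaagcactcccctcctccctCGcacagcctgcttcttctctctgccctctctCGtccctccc
Il33, chr19:29945540-29945789, plus strand, the downstream of 2 starts: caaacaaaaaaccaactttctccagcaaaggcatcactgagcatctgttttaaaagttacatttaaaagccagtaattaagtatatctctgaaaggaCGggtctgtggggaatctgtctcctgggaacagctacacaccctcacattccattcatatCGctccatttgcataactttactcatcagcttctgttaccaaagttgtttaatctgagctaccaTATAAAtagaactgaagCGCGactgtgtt
Cnr1, chr4:33924014-33924263, plus strand, the first of 3 starts: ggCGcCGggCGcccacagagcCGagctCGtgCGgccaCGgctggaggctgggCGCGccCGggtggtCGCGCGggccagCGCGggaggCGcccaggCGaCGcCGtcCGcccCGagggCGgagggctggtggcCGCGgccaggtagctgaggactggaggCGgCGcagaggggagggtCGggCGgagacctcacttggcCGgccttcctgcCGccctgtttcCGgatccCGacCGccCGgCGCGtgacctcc
The Ptn window holds 5 CG dinucleotides and no TATAAA, close to the median of 6 CG over the 32851 windows of the table. The Il33 window holds 4 CG, and its TATAAA begins 29 bases before the start. At the upstream Il33 start, not printed, the window also holds 4 CG, and its TATAAA begins 203 bases before the start. TATAAA stood on the transcribed strand in 7.59% of all windows and on either strand in 12.4%. The Cnr1 window holds 36 CG, a number that 2.58% of windows reach, while the windows of the other Cnr1 starts hold 28 and 5. Which start is used in these cells was not tested. Windows were found for 19 of the 23 named or called genes. These matches describe the letters and not the use of a site.

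On the VP64 and DEL arrays, the 75th percentile of the signal was 559 to 1253, and 34.9 to 41.4% of spots were well above background. Dim or bright patches, left out of the levels, covered 19.9 to 25.5% of spots on slide 1 (replicates 1 and 2) and 1.44 to 8.32% on slide 2 (replicates 3 and 4). Of the 13101 probes tested, 64.5% had a value on Ptn VP64 replicate 2, against 78.0 to 97.8% on the other 7 arrays. Each construct kept 1 slide column on both slides, so position on the slide and construct cannot be told apart. All 10 ES cell markers fixed for the check, among them Pou5f1, Sox2 and Nanog, were well above background on all 8 arrays. Levels are log2 values against the array's 75th percentile, after correction for patches. Differences are log2, Ptn VP64 minus Ptn DEL, with their standard error.

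Ptn RNA was higher on every measured VP64 array than on every measured DEL array, but the difference did not pass over all probes. Its level was 2.98, 2.60 and 3.31 on VP64 replicates 2 to 4. On DEL replicates 2 to 4 it was -0.31, -2.53 and 0.01, and the spot of replicate 1 was left out in both groups. The VP64 arrays lay close together (2.96 ± 0.36, SD, n = 3), while DEL replicate 3 stood far below the other DEL arrays (-0.94 ± 1.38, n = 3). Of the measured arrays, 3 after VP64 and 2 after DEL were well above background. Among all arrays of the series other than VP64, 4 were, so the fold rests on dim levels. The means differ 15.0-fold, and the fitted difference was 4.00 ± 0.90 (adjusted p = 0.203 in limma over 13101 probes). It was 3.29 on slide 1 and 4.22 on slide 2. DEL, at -0.94, lay beside EGFP at -1.24 ± 1.32 (n = 2) and Ptn Delta at -0.97 ± 1.33 (n = 3), and these 3 groups overlapped. An exact 2-sided permutation test gave p = 0.1, the smallest that 3 arrays against 3 allow. In the series values deposited by the authors, which keep all spots, this probe read 13.28, 12.55, 12.61 and 13.51 after VP64 and 5.40, 8.41, 7.95 and 9.73 after DEL. A second Ptn probe read 12.33, 13.21, 13.18 and 12.11 against 7.15, 9.64, 8.15 and 10.13. Neither probe overlapped, and the exact permutation p was 0.0286 for each, the smallest that 4 against 4 allow, with technical repeats counted as replicates.

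Of the other pleiotrophin genes, 10 were tested, the receptors and binding partners among them, and none was called. Over all genes tested 0.183% were called, so a count of 0 in a short list, here and below, is near that share. The syndecan Sdc2 differed by 0.60 ± 0.37 (adjusted p = 0.926), the integrin subunit Itgav by 0.63 ± 0.49 (adjusted p = 0.941) and the receptor kinase Alk by -0.38 ± 0.31 (adjusted p = 0.941). The 5 genes with the highest Pearson correlation with Ptn, over the 10 or 11 arrays that measured both, were Zbtb41, Upk1a, Fcgr3, Prkch and Tdpoz4. No coefficient is given, because the VP64 arrays stand apart from the rest in Ptn. Of the 5, Fcgr3 passed between VP64 and DEL (2.45 ± 0.42, adjusted p = 0.045), while Zbtb41, Upk1a and Prkch differed by 0.57 to 0.90 with adjusted p of 0.376 to 0.937. Tdpoz4, with no DEL array well above background, was at least 5.31-fold apart (adjusted p = 0.163).

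**Figure D1:**
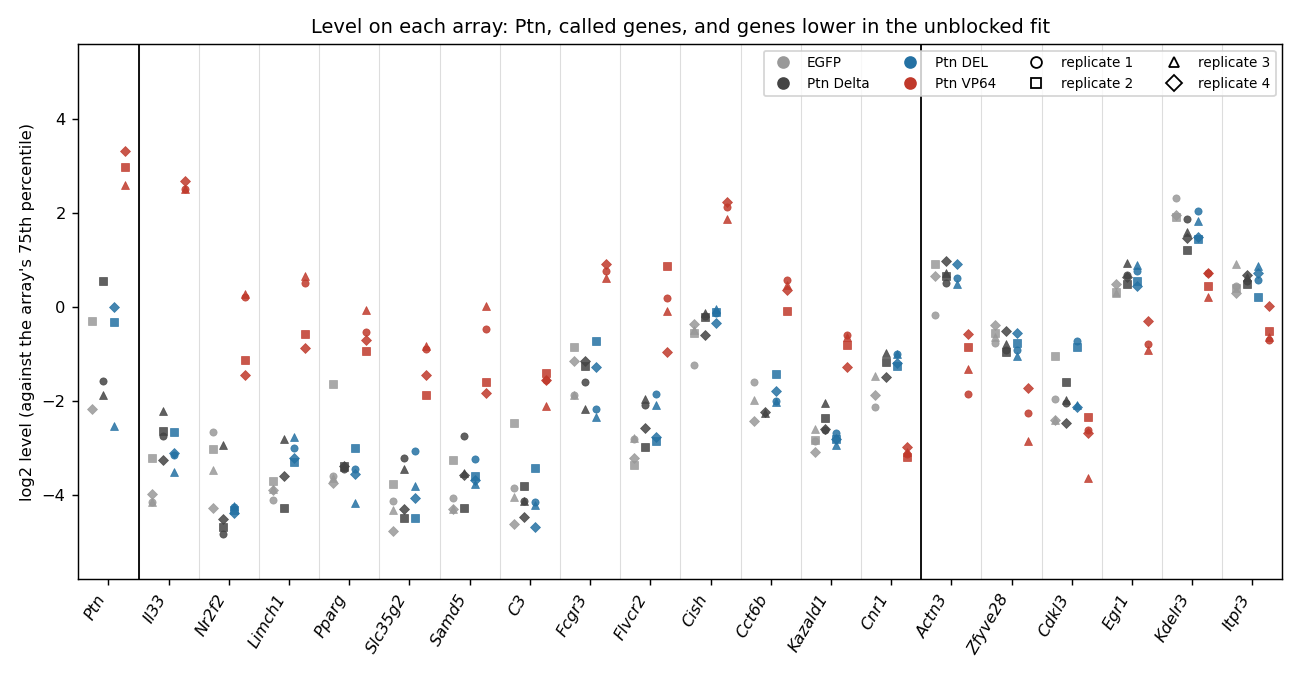
Log2 level on each array (vertical axis, against the array's 75th percentile) of Ptn, of the 13 called genes named by the rule, and of 6 genes lower after VP64 in the unblocked fit. Colours are the 4 constructs and marker shapes the replicates; missing markers are spots left out. In the 13 called genes, every Ptn VP64 array lies on 1 side of every Ptn DEL array.

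Between VP64 and DEL, 20 of 13101 probes passed an adjusted p of 0.05 in limma (0.153%). Of these, 18 were higher after VP64 (0.137%) and 2 were lower (0.0153%). They stood for 16 genes and 4 probes without a symbol. At an unadjusted p under 0.05, 3.15% of all probes were higher and 3.25% lower. On all 20 called probes the arrays of the groups did not overlap, and the sign was the same on both slides. Choosing probes by p in these same arrays favours both, so neither adds support. Of all 3518 probes with 8 arrays measured, 4.12% had every VP64 array above every DEL array and 5.51% every VP64 array below. The count rests on the whole set of arrays. Leaving out a VP64 array left 13, 14, 5 and 7 calls (replicates 1 to 4), and leaving out a DEL array left 7, 11, 9 and 7. Il33, Limch1, Kazald1 and Cnr1 passed in all 8 of these fits. With the replicate number as a block in place of the slide, 130 probes passed (0.992%), 93 higher (0.71%) and 37 lower (0.282%), and all 20 calls were among them. Averaging the arrays to 2 samples a group left Il33 alone (0.00763%). Of the 18 probes that were higher, 8 entered the test only through the VP64 arrays, since they were well above background on fewer than 4 of the other 12. They are Limch1, Nr2f2, Slc35g2, Samd5, C3 and 3 probes without a symbol, and their p-values carry that selection. With normexp background correction no probe passed (266 were at an unadjusted p under 0.05 in limma), and Il33 had a difference of 4.82 with an adjusted p of 0.166. Of the 12358 probes that would enter without the VP64 arrays, 12 were called (0.0971%), 10 of them higher.

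**Figure D2:**
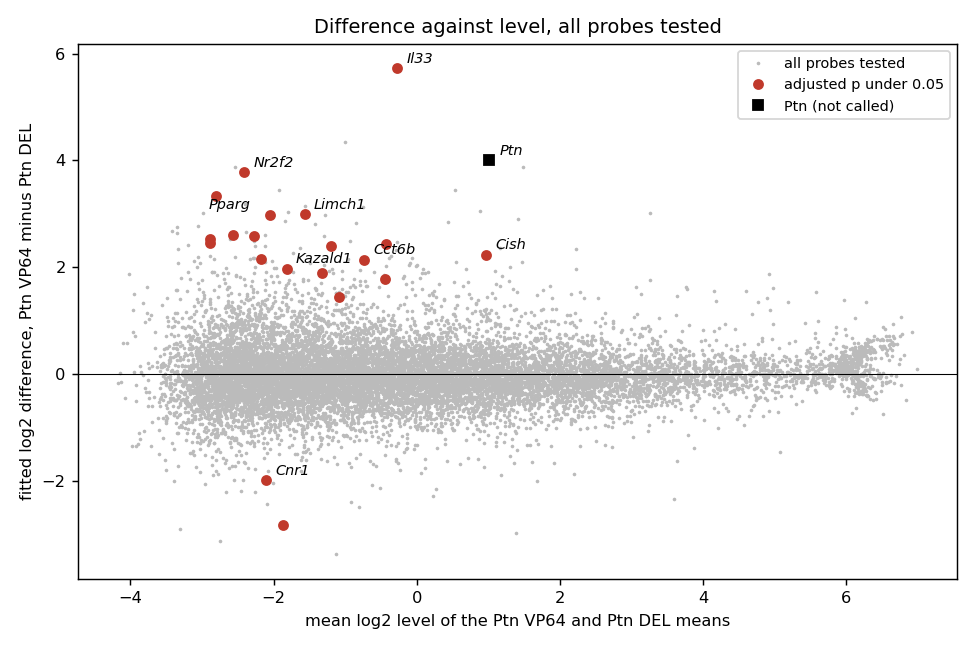
Fitted log2 difference, Ptn VP64 minus Ptn DEL (vertical axis), against the mean log2 level of the groups (horizontal axis) for the 13101 probes tested. The 20 called probes are red; Il33 has the largest difference, 5.73, and Ptn, at 4.00, is not called.

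Il33, a cytokine of the interleukin 1 family that is stored in the nucleus of barrier cells and released on damage, was 52.9-fold higher after VP64 in the fit, against DEL arrays of which 1 of 4 was well above background. Its level was 2.52, 2.51 and 2.67 on VP64 replicates 1, 3 and 4, where replicate 2 was left out. On DEL replicates 1 to 4 it was -3.14, -2.67, -3.51 and -3.12. The VP64 arrays spanned less than the DEL arrays. The difference was 5.73 ± 0.33 (adjusted p = 3.11e-06), and it was 5.42 on slide 1 and 5.90 on slide 2. EGFP read -3.87 ± 0.44 and Ptn Delta -2.71 ± 0.43 (n = 4 each). Of the other 5 genes of the interleukin 1 pathway tested, none was called; the adaptor Myd88 differed by -0.49 ± 0.31 (adjusted p = 0.928) and the inhibitory receptor Sigirr by -0.36 ± 0.32 (adjusted p = 0.957).

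A pair of nuclear receptors rose after VP64, of which Nr2f2 entered the test only through the VP64 arrays. Nr2f2, which codes for COUP-TFII, a repressor and activator of mesoderm and vessel development, read 0.21, -1.13, 0.28 and -1.44 on VP64 replicates 1 to 4. On DEL it read -4.25, -4.33, -4.24 and -4.38, with no array well above background. The rise was at least 12.6-fold by the detection limit of the DEL arrays (adjusted p = 0.0166; measured means -0.52 and -4.30). Such a bound sets the VP64 mean against the lowest signal well above background on each DEL array, or the probe's own where that is higher. It rests on the dimmest such probe of each array and holds for the main levels only. With normexp the difference was 2.70 for Nr2f2, 1.62 for C3, 2.08 for Slc35g2 and 2.035 for Samd5. Each of these is below the bound given for that gene. VP64 replicates 1 and 3 lay clearly above replicates 2 and 4. The call was lost without VP64 replicate 3 (adjusted p = 0.0655), DEL replicate 1 (0.0523) or DEL replicate 4 (0.0522). Pparg, the receptor that drives fat cell formation and is also needed in the placenta, read -0.53, -0.93, -0.06 and -0.70 after VP64. After DEL it read -3.46, -2.99, -4.17 and -3.55. Pparg was 7.93-fold higher (2.99 ± 0.47, adjusted p = 0.0207), against DEL arrays of which 2 of 4 were well above background. With normexp its difference was 1.98. Its call held in 3 of the 8 fits that left out an array and was lost without VP64 replicate 3 or 4, or DEL replicate 1, 3 or 4 (2.75 to 3.01, adjusted p up to 0.0687).

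Cish, a member of the SOCS family that cytokine receptors switch on through STAT5 and that shuts those receptors down, was 4.71-fold higher after VP64. The level was 2.14, 1.88 and 2.23 on VP64 replicates 1, 3 and 4. It was -0.14, -0.10, -0.04 and -0.33 on the DEL arrays, a spread of 0.13 (SD). All these arrays were well above background in both groups, and the difference was close on the slides, 2.26 and 2.24 (2.24 ± 0.28 in the fit, adjusted p = 0.0062). Leaving out VP64 replicate 4 took the adjusted p to 0.0541. In the list of naive pluripotency genes, which holds the LIF receptor and its targets, Lifr differed by -0.40 ± 0.42 (adjusted p = 0.975) and none of the 13 genes tested was called. Fcgr3, an antibody receptor of macrophages and natural killer cells, was 5.45-fold higher, at 0.76, 0.61 and 0.92 on VP64 replicates 1, 3 and 4 and -2.34 to -0.73 after DEL. C3, the central component of complement, was called on a probe that entered the test only through the VP64 arrays. On this probe it was at least 4.90-fold higher (adjusted p = 0.0207), at -2.11 to -1.41 after VP64 and -4.69 to -3.43 after DEL. A second C3 probe differed by 0.93 (adjusted p = 0.759). It was well above background on 1 of 3 measured VP64 arrays and on 3 of 4 DEL arrays. The C3 probes thus disagree in size and in detection after DEL, and the bound holds for the called probe only. Both calls depended on single arrays: Fcgr3 passed in 2 and C3 in 4 of the 8 fits without an array (adjusted p up to 0.17 and 0.0774). Fcgr3 passed only without VP64 replicate 2 or DEL replicate 2, and C3 was lost without VP64 replicate 3 or 4, or DEL replicate 1 or 4.

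The remaining calls had varied functions, and of these Limch1, Slc35g2 and Samd5 entered the test only through the VP64 arrays. Limch1, an actin-binding protein that activates non-muscle myosin, was 7.99-fold higher (3.00 ± 0.39, adjusted p = 0.00908). Of its 4 DEL arrays, 2 were well above background, and with normexp the difference was 2.57. Limch1 read 0.52, -0.57, 0.65 and -0.87 after VP64 and -3.00, -3.30, -2.77 and -3.21 after DEL. A second Limch1 probe gave 2.33 with an adjusted p of 0.134. Slc35g2, a membrane protein of the nucleotide sugar transporter family, was at least 5.81-fold higher, and Samd5, a SAM domain protein, at least 6.04-fold higher (adjusted p = 0.0207 and 0.0437), with no DEL array well above background for either. Flvcr2, a membrane transporter of the heme and choline transporter family, was 5.26-fold higher, at 0.20, 0.87, -0.10 and -0.96 against -2.86 to -1.85 (adjusted p = 0.0468). Slc35g2 passed in 2, Flvcr2 in 1 and Samd5 in none of the 8 fits that left out an array, with adjusted p up to 0.157. Slc35g2 passed only without VP64 replicate 2 or DEL replicate 1, and Flvcr2 only without VP64 replicate 4. Kazald1, a secreted protein with a Kazal domain, read -0.60, -0.81, -0.64 and -1.28 after VP64 and -2.68, -2.80, -2.94 and -2.81 after DEL. It was 3.93-fold higher (1.98 ± 0.24, adjusted p = 0.00575), and leaving out any array kept the adjusted p at 0.0253 or less. Cct6b, the testis form of a chaperonin subunit, was well above background on all 8 arrays and 4.41-fold higher (2.14 ± 0.28, adjusted p = 0.0166). It passed without VP64 replicate 1 or 2 or DEL replicate 2 and was lost without any other array (adjusted p up to 0.0655). Another 3 called genes fall outside the naming rule and were chosen after their values were seen. They were Serpinb1a, a protease inhibitor (1.78 ± 0.29, adjusted p = 0.0394), Arhgdib (1.45 ± 0.24, adjusted p = 0.0394), and Ehd2, an ATPase of caveolae (1.89 ± 0.33, adjusted p = 0.048).

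The genes with the opposite direction were few. Cnr1, the cannabinoid receptor CB1, was 3.96-fold lower after VP64 in the fit and was the only named gene called in this direction. It read -3.12, -3.19, -3.10 and -2.97 on the VP64 arrays, where 1 array was well above background. It read -0.996, -1.25, -1.01 and -1.20 on the DEL arrays, all well above background. Neither group spread by more than 0.13 (SD), and the difference was -1.98 ± 0.23 (adjusted p = 0.0062). With normexp background correction it was -0.61 and did not pass. EGFP lay between them at -1.83 ± 0.33, and Ptn Delta at -1.22 ± 0.25 lay beside DEL.

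A further 6 genes were lower in the unblocked fit, which counts technical repeats as replicates (0.374% of probes called, 0.298% higher and 0.0763% lower; among genes 0.419% higher and 0.0917% lower). They missed the threshold in the main test. With the replicate number as a block all 6 passed. That fit has its own estimates and errors. The differences and errors printed beside its adjusted p, here and below, are those of the main fit. Egr1, the immediate early transcription factor, read -0.79, -0.92 and -0.29 on VP64 replicates 1, 3 and 4 and 0.77, 0.56, 0.90 and 0.44 on DEL (-1.33 ± 0.24, adjusted p = 0.0717 and 0.0269 with the block). Actn3, the alpha-actinin of fast muscle, differed by -1.80 ± 0.35 (adjusted p = 0.108 and 0.0078 with the block). Zfyve28, an endosomal restraint on EGF receptor signalling, differed by -1.44 ± 0.29 (0.108 and 0.0086). Kdelr3, a receptor that returns chaperones to the endoplasmic reticulum, differed by -1.17 ± 0.25 (0.134 and 0.0156), and Itpr3, a calcium channel of the same membrane, by -1.05 ± 0.22 (0.111 and 0.037). The kinase gene Cdkl3 differed by -1.38 ± 0.32 (0.163 and 0.0496). In all 6, the EGFP and Ptn Delta means lay closer to DEL than to VP64; for Egr1 they were 0.37 ± 0.11 (n = 3) and 0.69 ± 0.19 (n = 4).

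Of the 4 called probes without a symbol, 3 were named by the smallest p. The probe for the transcript ENSMUST00000034808 was at least 8.35-fold higher (adjusted p = 0.0135), and its VP64 arrays spanned only -1.24 to -1.07. The probe NAP028851-1 was at least 4.44-fold higher (adjusted p = 0.0319). The probe for ENSMUST00000001667 was at least 7.05-fold lower (adjusted p = 0.0207), with no VP64 array well above background and DEL at -0.56, -0.03 and -0.80.

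**Figure D3:**
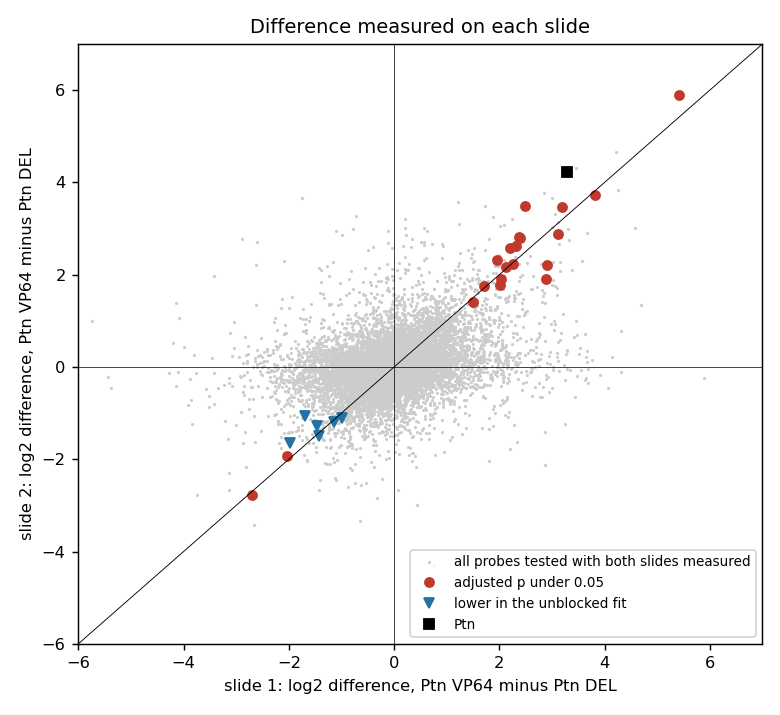
Log2 difference, Ptn VP64 minus Ptn DEL, measured on slide 1 (horizontal axis) and on slide 2 (vertical axis) for the probes tested. The 20 called probes (red) lie near the diagonal in the upper right and lower left, the 6 genes of the unblocked fit (blue) lie in the lower left, and the cloud of all probes is wider along slide 1.

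Values against the remaining constructs share the VP64 or the DEL arrays with this comparison and are given side by side only. Against EGFP, 17 of the 20 called probes passed after VP64, and against Ptn Delta 16 did. After DEL none of the 20 passed against either, with 5 at an unadjusted p under 0.05 against EGFP and 0 against Ptn Delta. Over all 13101 probes, limma called 131 for VP64 minus EGFP and 18 for VP64 minus Ptn Delta. It called 0 for DEL minus EGFP (615 at an unadjusted p under 0.05, 0 in the unblocked and in the averaged fit) and 0 for DEL minus Ptn Delta (38 at an unadjusted p under 0.05, 0 in both other fits). The called probes not past the threshold against EGFP were those of Serpinb1a (EGFP mean -0.45, DEL mean -1.32), Arhgdib (-1.08 and -1.81) and ENSMUST00000001667 (-1.52 and -0.46). In each, the EGFP mean lay between those of VP64 and DEL.

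The VP64 arrays differed among themselves in the genes that were called. Of the 14 higher called probes with all 4 VP64 arrays measured, 10 had replicates 1 and 3 both above replicates 2 and 4, and 0 had them both below. Over all tested probes with 4 VP64 arrays measured, 22.0% had the first order and 19.1% the second. On the DEL arrays, 5 of 16 of these probes had replicates 1 and 3 above, against 25.9% of all. Replicates 1 and 3 shared slide row 2 and replicates 2 and 4 row 1; whether they also share a transfection is not given in the labels, and row and sample cannot be told apart. Limch1, Nr2f2 and Samd5 show this order. In Samd5 the VP64 arrays read -0.48, -1.60, 0.02 and -1.83. The VP64 arrays lay closest together in Il33 (SD 0.09, n = 3), the probe for ENSMUST00000034808 (SD 0.07, n = 4) and the probe NAP028851-1 (SD 0.09, n = 4), among the called probes named here with a higher level after VP64.

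Gene lists written for cell state, signalling and stress held 236 genes that were tested, of which Il33 alone was called in the main test, against 0.183% of all genes tested. With the replicate block, 16 list genes passed, 15 higher and 1 lower, the latter Egr1. Background shares for the counts below, over the 7633 genes tested, were 3.97% higher and 3.08% lower at an unadjusted p under 0.05. They were 0.943% higher and 0.328% lower with the replicate block. The median difference of all genes was -0.01, and 48.1% of them had a difference above 0. In bulk RNA, more cells of a type and more RNA per cell cannot be told apart. Genes high after VP64 alone could enter the test through those arrays, which favours differences above 0. Counts at an unadjusted p under 0.05 are therefore also given without genes that needed the VP64 arrays. The counts with the replicate block keep such genes, Wnt7b and Krt20 among them. Quantile normalization moved the median of all probes to 0.31 and normexp to 0.15, and the list medians quoted as above 0 or below 0 kept that sign in every scaling tried, the endoderm list excepted.

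Trophoblast genes, which mark the lineage of the placenta, had the highest list median. Of 23 genes written, 22 were on the array and 11 were tested. All 11 differences were above 0 (median 1.57), against 48.1% of all genes tested. Krt8 and Krt19 stand on the keratin list as well. At an unadjusted p under 0.05, 6 were higher and 0 lower. Without Esx1 and Plac1, which entered only through the VP64 arrays, 4 of 9 were higher, with a median of 1.39. Gata3, a transcription factor that starts the trophoblast programme, differed by 2.48 ± 0.78 (adjusted p = 0.425), its paralog Gata2 by 1.60 ± 0.44 (adjusted p = 0.299), and the X-linked homeobox gene Rhox9 by 1.57 ± 0.55 (adjusted p = 0.524). Esx1, a placental homeobox gene, had no DEL array well above background and was at least 8.24-fold apart (adjusted p = 0.5). Eomes differed by 0.30 and Id2 by 0.06, the smallest differences of the list. None of the 11 passed in the main test, where the simple epithelium keratin Krt19 differed by 1.20 ± 0.97. In the fit with the replicate block, which has its own estimate and error, Krt19 passed (adjusted p = 0.0358). The summed level of the 10 trophoblast markers fixed for the check was 3.44 to 6.70 on VP64 and 1.95 to 5.11 on DEL arrays, which overlap. A marker adds nothing to the sum of an array where its spots were left out. These sums, and those of the other marker sets below, therefore depend on which spots were measured. Of the 10 trophoblast markers, 4 were well above background on all arrays of each group, and 1 was on no VP64 array and 3 on no DEL array. Cdx2 was well above background on 2 VP64 and 3 DEL arrays (mean levels 0.04 and -1.19), and Elf5 on none. Tfap2c had mean levels of 2.53 after VP64 and 2.34 after DEL. Taken from the group means, the median of the list was 1.12 to 2.24 over the 5 scalings compared. The list stood above the midpoint of the group means by 1.25 and 1.72 on VP64 replicates 1 and 3, and by 0.13 and 0.27 on replicates 2 and 4. On the DEL arrays it stood at -0.46, -0.60, -0.44 and -1.08. Centring on the group means favours such a separation. The plain median level of the list was -0.413 to 2.12 on VP64 and -1.62 to 0.248 on DEL arrays, which overlap.

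**Figure D4:**
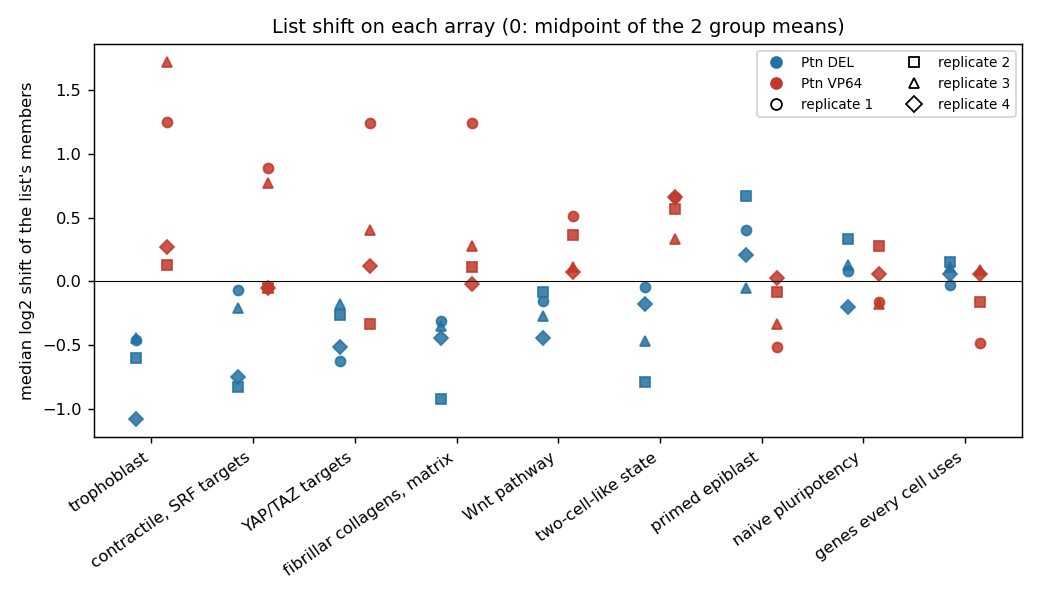
Median log2 shift of the members of 9 gene lists on each array, from the midpoint of the members' VP64 and DEL means (vertical axis); colours are the constructs and marker shapes the replicates. In the trophoblast list, VP64 replicates 1 and 3 lie above replicates 2 and 4, and all VP64 arrays lie above the DEL arrays. Centring on the group means favours such a separation, and the plain list medians overlap (VP64 -0.413 to 2.12, DEL -1.62 to 0.248). In the contractile list VP64 replicate 2 (-0.05) rests on 1 of 10 members and lies close to DEL replicate 1 (-0.07). Naive pluripotency genes and genes every cell uses overlap.

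Contractile actin and SRF target genes had a median of 0.96 over 10 tested members, 9 of them above 0, with 4 higher and 0 lower at an unadjusted p under 0.05 and all 10 entering without the VP64 arrays. Acta2, smooth muscle actin, whose spot was saturated on 1 of the 8 arrays, differed by 3.02 ± 1.25 (adjusted p = 0.665 and 0.00262 with the block), and Fhl2, a LIM coactivator of SRF, by 3.06 ± 0.77 (0.25 and 0.00865). The actin-binding proteins Cald1 and Cnn2 differed by 1.73 ± 0.61 and 1.11 ± 0.44 (0.513 and 0.637; 0.0669 and 0.235 with the block). For Acta2 the VP64 mean was 4.84 ± 1.37 (n = 3) and the DEL mean 1.67 ± 1.60 (n = 4), so the arrays of each group spread widely. YAP and TAZ targets, genes of cell tension and growth, had 3 higher and 1 lower of 10 (median 0.85), and 2 higher and 1 lower of the 7 that entered without the VP64 arrays (median 0.68). Thbs1, an adhesive matrix protein, differed by 2.90 ± 0.96 (adjusted p = 0.463 and 0.00737 with the block). The nucleotidase Nt5e differed by -0.89 ± 0.38 (adjusted p = 0.737). Fhl2 stands on both lists.

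Of the 6 fibrillar collagen and fibroblast matrix genes tested, 2 were higher and 0 lower at an unadjusted p under 0.05 (median 0.84). Col1a1, the main collagen of connective tissue, differed by 3.13 ± 1.07 (adjusted p = 0.466 and 0.0266 with the block), and Timp3, an inhibitor of matrix proteases, by 1.19 ± 0.33 (0.302 and 0.0489). The 9 fibroblast markers summed to 2.71 to 4.96 on VP64 and -1.22 to 4.57 on DEL arrays. Vim alone had a mean level of 4.29 after VP64 and 4.34 after DEL where it was measured. The lowest sums therefore reflect spots left out and not a low level of these markers. Of the 9 markers, 2 after VP64 and 1 after DEL were well above background on all arrays, and 3 and 4 on none. Their part in the result was not tested. The basement membrane collagens Col4a1 and Col4a2, written in the endoderm list, start 21 bases apart on opposite strands of chromosome 8 in RefSeq and so share a promoter region. Col4a1 read 1.81 ± 0.55 after VP64 and 0.29 ± 0.15 after DEL (n = 4 each), a difference of 1.52 ± 0.28 that missed the threshold (adjusted p = 0.0562) and passed with the block (0.0263). Col4a2 differed by 2.05 ± 0.43 (adjusted p = 0.143 and 0.0911 with the block). The collagen chaperone Serpinh1 differed by 1.64 ± 0.36 (0.163 and 0.0131). The endoderm list as a whole had 4 higher and 0 lower of 14, and its median of -0.17 turned to 0.79 with normexp background correction and 0.31 with quantile normalization. The 8 primitive endoderm markers overlapped (2.54 to 3.40 on VP64, 2.75 to 3.05 on DEL arrays).

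Among Wnt pathway genes, 5 of 15 were higher and 0 lower at an unadjusted p under 0.05 (median 0.32). Without the 4 that entered only through the VP64 arrays, 2 of 11 were higher and the median was 0.00. Those 4 are Wnt7b, Dkk1, Wnt5a and Axin2, and their p-values carry that selection. Wnt7b, a ligand, differed by 2.98 ± 0.62 (adjusted p = 0.143 and 0.0199 with the block), and the receptor Fzd2 by 1.22 ± 0.30 (0.186 and 0.037). Dkk1, a secreted inhibitor of the pathway and a YAP target on the other list, differed by 4.35 ± 0.89 (0.147 and 0.0669). The ligand Wnt6 differed by 1.41 ± 0.41 (0.308 and 0.0949). Keratins and junction genes had 2 higher and 0 lower of 15 (median 0.63), and 1 higher of the 14 that entered without the VP64 arrays. Krt20, a keratin of the gut lining that entered only through those arrays, differed by 3.03 ± 0.84 (adjusted p = 0.312 and 0.00617 with the block), and the desmosome protein Dsp by 1.03 ± 0.65 (0.928 and 0.0192).

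None of the 13 naive pluripotency genes tested and none of the 4 ES markers tested (Dppa5a, Sall4, Utf1 and Tdgf1) was at an unadjusted p under 0.05. The other 6 ES markers, the core factors Pou5f1, Sox2 and Nanog among them, did not pass the filter and have no test. Over the arrays that measured them, the mean level of Pou5f1 was 5.25 after VP64 and 6.31 after DEL, and that of Sox2 was 4.93 and 5.09. The difference with the smallest p among naive genes was that of Gbx2, a homeobox gene downstream of LIF, at -1.25 ± 0.56 (adjusted p = 0.788). Primed epiblast genes, switched on as ES cells leave the naive state, ran the other way: 6 of 8 were below 0 (median -0.62), 3 at an unadjusted p under 0.05 and none called. Their median was -0.27 with quantile normalization and -0.036 with normexp. Lefty1, a Nodal inhibitor, read 3.17 ± 0.34 (n = 3) after VP64 and 4.58 ± 0.29 (n = 4) after DEL, a difference of -1.38 ± 0.30 (adjusted p = 0.169). The transcription factor Zic2 differed by -1.64 ± 0.65 (adjusted p = 0.715) and the growth factor Fgf5 by -1.09 ± 0.50 (adjusted p = 0.781). Genes of the 2-cell-like state had 3 higher and 0 lower of 7, and 2 of 6 without Tdpoz4, which entered through VP64 arrays; Sp110 differed by 1.55 ± 0.34 (adjusted p = 0.147).

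**Figure D5:**
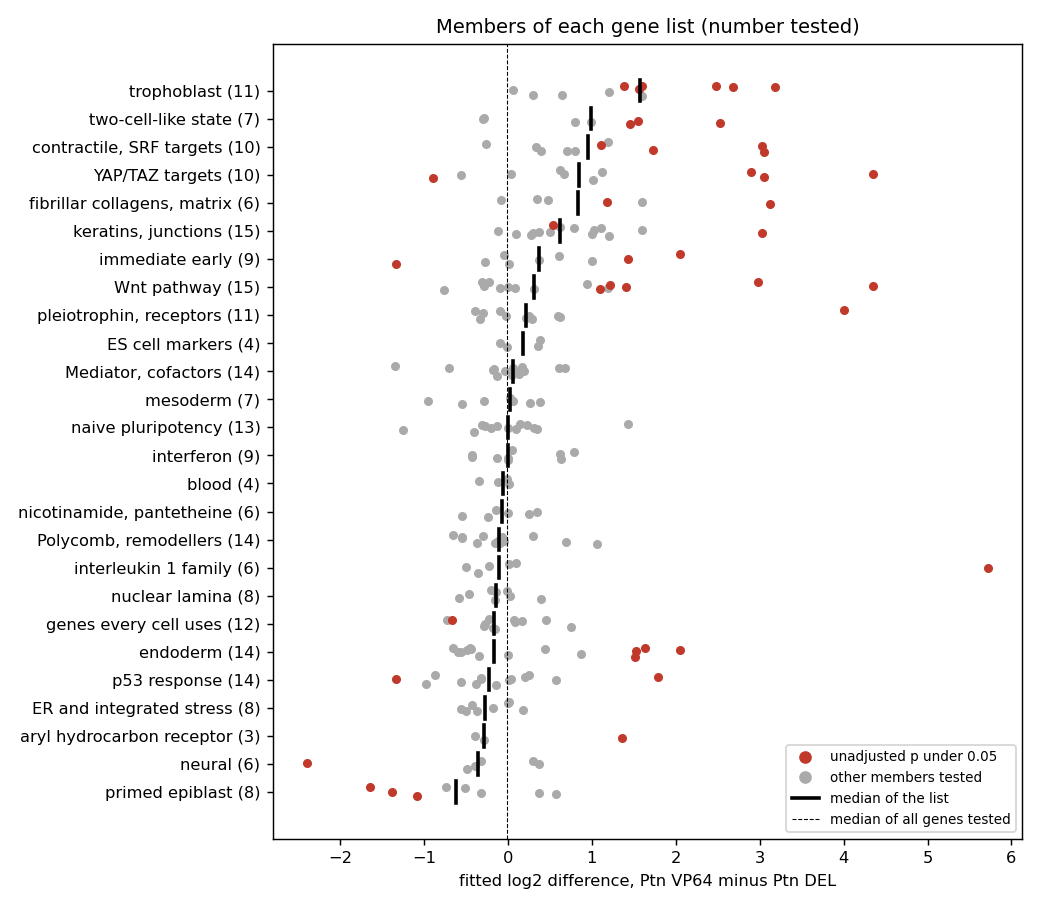
Fitted log2 difference, Ptn VP64 minus Ptn DEL (horizontal axis), of each tested member of the 26 gene lists, ordered by median (black bar), with the number tested in parentheses. Red members have an unadjusted p under 0.05; the trophoblast list has the highest median, 1.57, the primed epiblast list the lowest, -0.62, and Il33 stands alone at 5.73.

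Of 9 immediate early genes, 2 were higher and 1 was lower at an unadjusted p under 0.05. Besides Egr1, Fosl2, a partner of JUN in AP-1, differed by 2.05 ± 0.61 (adjusted p = 0.393 and 0.0109 with the block), and Ier3 by 1.43 ± 0.38 (0.263 and 0.0949). In the p53 response list, the death receptor Fas, which entered only through the VP64 arrays, differed by 1.79 ± 0.42 (adjusted p = 0.163) and the kinase Plk3 by -1.34 ± 0.58 (adjusted p = 0.765), with none of 14 called. No call fell in several further lists: interferon genes (0 of 9), integrated and endoplasmic reticulum stress genes (0 of 8), and Mediator subunits and other transcription cofactors (0 of 14). Nuclear lamina (0 of 8) and Polycomb, linker histone and remodeller genes (0 of 14) gave none either. In these 5 lists no member reached an unadjusted p under 0.05. The 5 blood cell markers on the array summed to 1.32 to 2.60 on VP64 and 0.683 to 1.84 on DEL arrays, with 3 on no array well above background in each group.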

How the data were processed

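RNA was measured on 16 single-colour arrays. Spot intensities were extracted and background-subtracted with Agilent Feature Extraction 11.5.1.1, per the file headers; the array design was annotated on mm9. The authors' deposited series values are log2 and share identical quantiles on all arrays; how they were made is not given in the sources used here, and they served as an alternative and for Ptn.

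Each array's processed signal was taken as log2 and set against its 75th percentile. A local shift, the median over a window of 21 by 21 spots of the differences from the median array at 17906 reference spots, was subtracted. Spots where this shift departed by more than 1 log2 unit from its median on the array were left out, as were spots marked as non-uniform or population outliers and 3671 control spots. Spots of 1 probe were averaged. RefSeq accessions named 27656 of 55681 probes (20972 genes, table of build GRCm38.p6), and 28025 had no symbol. A probe was tested if well above background on at least 4 arrays and measured on at least 3 arrays of VP64 and of DEL, and on at least 2 of EGFP and of Ptn Delta, the last condition added after the design was written.

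The 2-sided test was limma 3.58.1 (R 4.3.3) on all 16 arrays with slide as a term and technical pairs as a random block. It was run for each of the 3 possible pairings, and each probe took its largest p, with Benjamini-Hochberg adjustment across 13101 probes. The block correlation was -0.392 for pairs 1+2 and 3+4, 0.261 for 1+3 and 2+4, and -0.154 for 1+4 and 2+3. A negative block correlation was set to 0, which fits those pairings like unpaired arrays. The script was tested on simulated data. Same-numbered arrays share a slide and a row, and their deviations from the group means correlated at 0.278, 0.23, 0.308 and 0.13 for replicates 1 to 4, so a fit with the replicate number as a block is given beside results it changes. Precision is limited by the number of arrays.

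Named genes were Ptn, up to 12 rises and 12 falls by size among calls with 1 sign in all measured pairs, filled up from the unblocked fit where fewer passed and the groups did not overlap, up to 4 members of each list by smallest p, 3 probes without a symbol, and the 5 genes most like Ptn. Further members are named where a sentence turns on them. The comparison and the gene lists were chosen with earlier results of these data known. Alternatives changed the block, scaling, background correction (normexp on the median signal, offset 50, since no mean signal was used), patch correction, filters and arrays; each slide alone was added after seeing the data.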

Additional observations from a re-analysis of the deposited data

How the results depend on the processing

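The 19 genes named from the calls and from the unblocked fit kept their direction in all settings that gave them a value, and Ptn stayed between 3.21 and 5.22 without being called in any of 24. Il33 was called in 25 of 26 settings, Kazald1 and Cnr1 in 21 of 29, and Limch1 in 20 of 28. The number of called probes, 20 as reported, depended strongly on the fit: 49 with arrays unblocked, 130 with the replicate block, 37 without the slide term, 5 with only the 8 arrays of VP64 and DEL, and 1 with arrays averaged to 2 samples a group. It was 1 without patch correction, 0 with normexp (266 at an unadjusted p under 0.05 in limma), 5 with quantile normalization, 3 in the series values, 13 with no filter on dim probes, 5 with the filter at 8 arrays, 0 on slide 1 alone (230 at an unadjusted p under 0.05) and 1 on slide 2 alone. Leaving out 1 array gave 5 to 14. List entries called, 1 as reported, were 4 unblocked, 18 with the replicate block, 3 without the slide term, with a window of 11 spots, with a patch limit of 0.5 or with marked spots kept, and 2 in the series values, with no filter, with 2 arrays a group or with an intensity trend. They were 0 with normexp, with the filter at 8 arrays and on slide 1 alone, and 1 to 2 with 1 array left out. Probes whose 4 arrays a group did not overlap, 339 as reported, were 144 with a patch limit of 0.5 and 552 with 1.5, 700 with marked spots kept, 93 with normexp and 864 in the series values. Fewer arrays or probes entered where arrays, slides or spots were left out; for the other settings the cause was not tested. Dim probes limit the size of a fold: where no array of a group was well above background, the fold is a lower bound in the main levels. With normexp the differences of Nr2f2, C3, Slc35g2 and Samd5 were below these bounds.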

Other observations

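Further list genes had an unadjusted p under 0.05 between VP64 and DEL and did not pass over all probes. Sox1, a transcription factor of the early neural plate, had a mean level of -2.10 ± 0.62 (SD, n = 3) after VP64 and 0.26 ± 1.67 (n = 4) after DEL, with a difference of -2.39 ± 0.73 (adjusted p = 0.356 in limma, 0.124 with the replicate block). It was the only 1 of 6 neural genes tested at an unadjusted p under 0.05. Aldh3a1, an aldehyde dehydrogenase that the aryl hydrocarbon receptor induces, had means of -0.62 ± 0.21 (n = 4) and -1.89 ± 0.54 (n = 3), with a difference of 1.36 ± 0.46 (adjusted p = 0.513). For the receptor's partner Arnt the value was -0.28 ± 0.29 (adjusted p = 0.975). Dab2, an endocytic adaptor of the endoderm list, differed by 1.53 ± 0.50 (adjusted p = 0.453). Of 12 genes that every cell uses, the lysosomal enzyme gene Gusb alone was at an unadjusted p under 0.05, with a difference of -0.67 ± 0.29 (adjusted p = 0.717).

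The promoters of the called genes differed widely in CG content. Of the 16 genes, 15 had a window in the RefSeq table, and the window richest in CG held from 1 (C3 and Nr2f2) to 38 dinucleotides (Pparg), against a 10th to 90th percentile of 1 to 25 over all windows.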
